A study of Mus musculus with 6 samples.

Results

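The 36 genes described here encode proteins of the nucleolus that make ribosomal RNA and assemble it into ribosomal subunits. They were chosen by name, as rows of the deposited count table whose gene symbol is on a list of such genes. The choice was made with earlier results of these data known. All 36 were found among the 55011 gene symbols of the table, and all 36 passed the filter on low counts that left 13859 genes for testing.

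RNA was measured by sequencing of whole visceral adipose tissue, the fat around the abdominal organs, from male C57BL/6 mice aged 30 weeks. All were fed low-fat food for 14 weeks, then high-fat food for 16 weeks, and tissue was taken at zeitgeber time 0 h, when the lights come on. Every mouse also carried a Cre recombinase with YFP under control of Foxp3, the transcription factor that defines regulatory T cells. The 2 groups differed in Bmal1 (gene symbol Arntl), a transcription factor of the circadian clock: 3 libraries were labelled Bmal1WT and 3 Bmal1KO. The Cre restricts the deletion to Foxp3-expressing cells, so other cells of the Bmal1KO fat are not targeted, and the comparison asks how the tissue as a whole differs. The labels number the samples without stating that each is a separate animal, so that a p-value here reflects how far these samples spread.

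Ribosomes are built in the nucleolus. RNA polymerase I transcribes one long precursor, small nucleolar ribonucleoproteins (snoRNPs) modify it at guided positions, and large sets of assembly factors fold and cut it into the RNAs of the small and the large subunit. Growth signals and the transcription factor MYC are known to raise the whole set in dividing and growing cells, and in mouse liver the clock is known to time parts of it, including Ubtf, the gene of a polymerase I cofactor. BMAL1 and MYC both bind the E-box, the DNA motif CACGTG.

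The libraries held 6514620 to 9529198 counts, and the 36 genes took 0.182% to 0.221% of them (12005 to 17845 counts per library). The lowest count of any of the 36 genes was 2, for Gar1 in Bmal1KO replicate 1. That library was the shallowest and had counts on 30019 genes, against 19009 to 20145 in the other 5. A list of 13 epididymis and testis genes summed to 4368 counts in Bmal1WT replicate 1 and to 3 to 29 in each other library. Defining markers of fat cells were abundant: Adipoq stood at a mean of 4642 CPM (counts scaled to a common library size) in Bmal1WT and 3193 CPM in Bmal1KO. Arntl itself had a log2 fold change of 0.27 (SE 0.22, edgeR adjusted p = 0.719). Foxp3 had 0 counts in each Bmal1WT library and 3, 0 and 2 counts in Bmal1KO replicates 1 to 3, at or under a floor of 3 counts. The deletion itself is thus not visible in these gene counts.

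As a group, the nucleolar genes stood at nearly the same level in Bmal1KO and Bmal1WT fat. Their median log2 fold change was 0.046, beside 0.018 over all genes tested, and 21 of them were higher and 15 lower in Bmal1KO. Grwd1, the gene of a chaperone for a large subunit protein, stood apart: its level in Bmal1KO was 1.92-fold below that in Bmal1WT. After Benjamini-Hochberg adjustment over the 13859 genes, none of the 36 passed at 0.05 in edgeR's quasi-likelihood test. The same held for every gene tested (0% called). DESeq2 called 1 of them, Grwd1, beside 0.417% of the 14400 genes it gave an adjusted p, and limma voom called 0, beside 0% of all genes.

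Before adjustment, p was under 0.05 for 2 of the 36 genes on the higher side (Wdr43 and Tcof1), against 5.05% of all genes tested, and for 3 on the lower side (Grwd1, Noc2l and Noc4l), against 4.26%. Together that was 5 of 36, set beside 9.31% of all genes. With 1 library left out the number was 2, 1 and 5 when it was Bmal1WT replicate 1, 2 or 3, and 3, 2 and 4 when it was Bmal1KO replicate 1, 2 or 3. Over all genes tested in the same fits the share was 6.97%, 7.46% and 7.61%, and 16.2%, 7.36% and 7.5%, so that the 3 members without Bmal1KO replicate 1 stand beside the highest share. The 3 values of one group lay wholly outside those of the other for 7 of the 36 genes, 5 lower (Grwd1, Noc2l, Noc4l, Wdr75 and Brix1) and 2 higher (Wdr43 and Tcof1), where 7.85% of all genes tested were wholly lower and 7.83% wholly higher.

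The intervals show what size of difference the data leave room for. For 29 of the 36 genes the 95% interval of the fold change lay within 2-fold in either direction, beside 52.2% of all genes tested. The 7 others were Grwd1 and Noc2l, whose intervals reached past 2-fold on the lower side, Noc3l, Polr1b, Fbl and Utp20, which reached past it on the higher side, and Gar1, which did both. Pes1 had one of the narrowest intervals, from -0.33 to 0.35 on the log2 scale. The median log2 fold change of the group turned slightly negative without Bmal1WT replicate 3 (-0.033) and without Bmal1KO replicate 3 (-0.034).

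**Figure D1:**
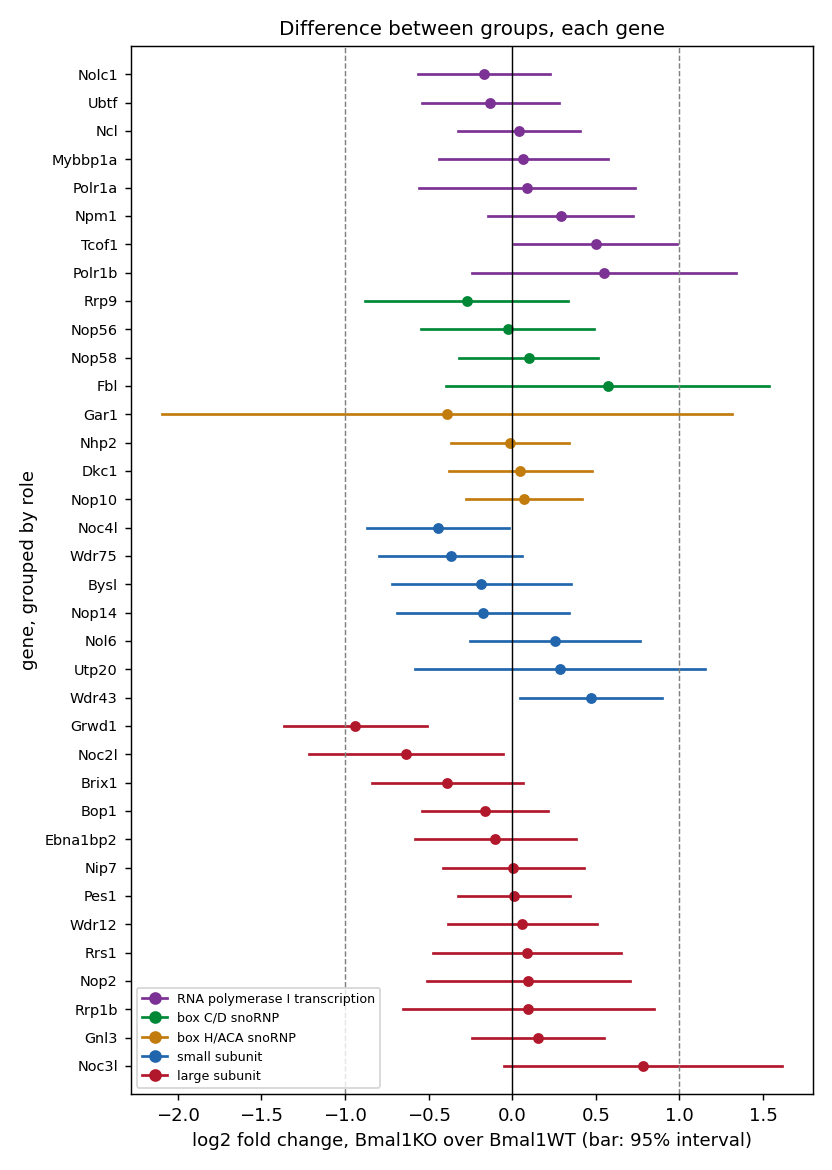
Log2 fold change of Bmal1KO over Bmal1WT for each of the 36 genes (points, x axis) with its 95% interval (bars), grouped by role on the y axis; dashed lines mark 2-fold. Most intervals span 0 and stay within 2-fold, and the interval of Grwd1 runs from -1.36 to -0.51.

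Grwd1 (ENSMUSG00000053801.18, mm10 chromosome 7, 45825223 to 45830944, reverse strand) encodes a WD-repeat protein rich in glutamate that escorts the ribosomal protein RPL3 to the assembling large subunit and also binds histones and the replication licensing factor CDT1. It had 36.6, 38.7 and 42.0 CPM in the Bmal1WT libraries (replicates 1, 2 and 3, the order used throughout) and 18.9, 20.7 and 21.5 CPM in the Bmal1KO libraries, from counts of 321, 330 and 390 and of 126, 183 and 173. Every Bmal1KO library was thus well below every Bmal1WT library, and both groups were tight. The means were 39.1 ± 2.7 CPM (SD, n = 3) and 20.4 ± 1.29 CPM, a log2 fold change of -0.94 with SE 0.19.

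The unadjusted p for Grwd1 was 0.000536, which ranked 16 among the 13859 genes. The rank depended on the libraries: it was 30, 56 and 48 without Bmal1WT replicate 1, 2 or 3, and 311, 65 and 19 without Bmal1KO replicate 1, 2 or 3. With both replicates numbered 1 left out it was 375. Over all genes tested, the share at an unadjusted p under 0.05 was 16.2% without Bmal1KO replicate 1 and 14.9% without both. In the main fit this share was 9.31%. The adjusted p of Grwd1 in edgeR's test was 0.0674 without Bmal1KO replicate 1. On all 6 libraries the rank was 17 with DESeq2 size factors and 56 with library size alone. It was 17 with a filter of at least 1 CPM in 3 libraries, 37 by limma voom and 46 with a replicate block. By DESeq2 it was 49 (34476 genes with a p), and without a filter it was 151 (34517 genes). In the main fit the adjusted p was 0.318 in edgeR's quasi-likelihood test. Over the 14 alternatives the log2 fold change ran from -0.98 to -0.84 and the adjusted p from 0.0308 to 0.695. It passed at 0.05 under 2 alternatives, edgeR without a filter on low counts (adjusted p = 0.0308, with 0.539% of all genes called) and DESeq2 (adjusted p = 0.0392). Fat cell markers were also lower in 2 of the 3 Bmal1KO libraries. The mean log2 level of 8 adipocyte markers relative to Bmal1WT was 0.12, -0.60 and -0.87 in Bmal1KO replicates 1 to 3, while Grwd1 was lowest in replicate 1, where these markers were within the Bmal1WT range of -0.20 to 0.17. The part of these cells in the Grwd1 values was not tested. Libraries made without marking strand cannot separate Grwd1 from the antisense gene Gm45441, which shares 50 bases with its exons and had 0 to 7 counts per library. No other transcript of GENCODE M21 resembled the Grwd1 transcript at 95% identity over 100 bases.

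**Figure D2:**
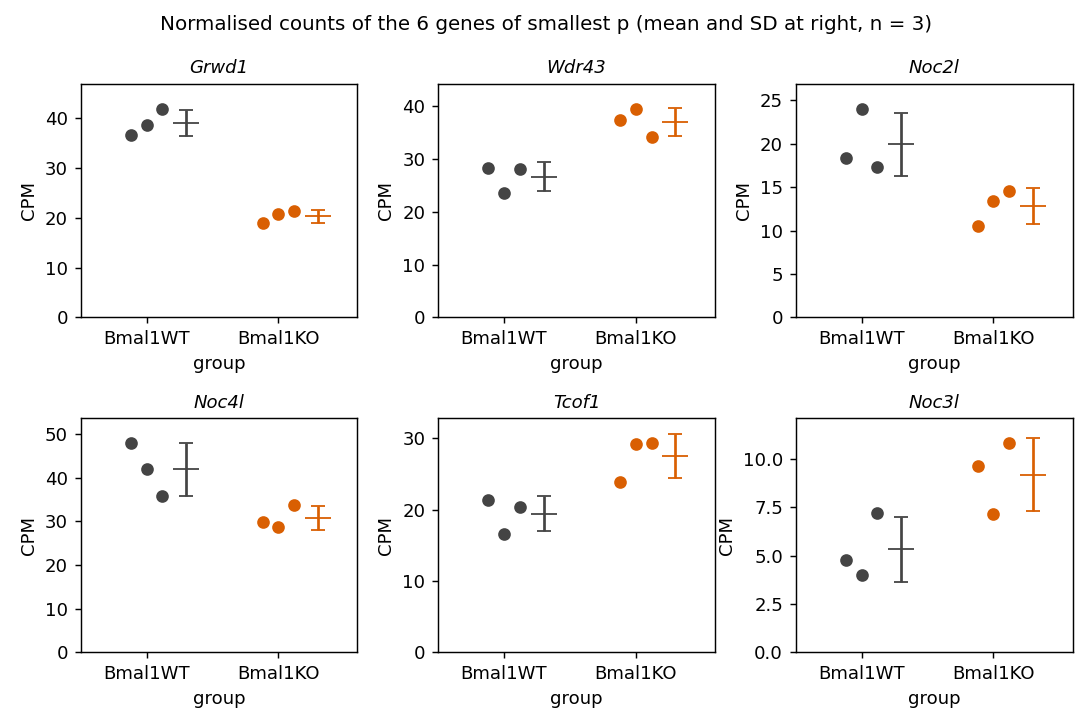
CPM (y axis, from 0) of the 6 genes of smallest p in each Bmal1WT and Bmal1KO library (points), with the mean and SD of 3 libraries at the right of each group. Grwd1, Noc2l and Noc4l are lower and Wdr43 and Tcof1 higher in all 3 Bmal1KO libraries, while the groups overlap for Noc3l.

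A canonical E-box, CACGTG (the same read on either strand), was present in the promoter window of Grwd1 and of 5 other members. RefSeq windows of GRCm38.p6, reaching from 250 bases before to 50 after the start, were at hand for 30 of the 36 genes. The motif was found in 6 of the 30 (20%), beside 11.7% of 10460 genes tested that had a window and 8.09% of all 27025 genes with one. Counted by window, it was in 15.4% of the 39 windows of these members and in 7.15% of all 32851 windows. The 6 sites are shown because BMAL1 is a factor of this motif and Grwd1, the member of smallest p, holds one; a match is not evidence of binding. Bases run 5′ to 3′ on the strand of the gene, and capitals mark the motif.
Grwd1, chr7:45830740-45830767, reverse strand: gggccggagtcgCACGTGtgaaaccgga
Wdr43, chr17:71616220-71616249, forward strand: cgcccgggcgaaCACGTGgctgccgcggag
Pes1, chr11:3963965-3963994, forward strand: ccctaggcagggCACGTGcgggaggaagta
Mybbp1a, chr11:72441355-72441376, forward strand: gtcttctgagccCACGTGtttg
Utp20, chr10:88826765-88826789, reverse strand: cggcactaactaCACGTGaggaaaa
Nop2, chr6:125131811-125131840, forward strand: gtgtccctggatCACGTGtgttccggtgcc

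In Grwd1 the motif began at base 35 after the RefSeq start, in Wdr43 at base 18, in Pes1 at base 3, in Mybbp1a at base 41 and in Utp20 at base 38. In Nop2 it began 60 bases before the start. A motif in the 50 bases after the RefSeq start was thus present in 5 of 30 members (16.7%) and in 1.83% of the genes tested. This split was made after the positions were seen. GENCODE M21 begins Grwd1 at 45830944 and Wdr43 at 71615895, both upstream of their RefSeq starts, so their motif positions depend on the annotation. The members with the motif did not share a direction: Grwd1 was lower (-0.94), Wdr43 higher (0.47), and Utp20 (0.29, SE 0.39), Nop2 (0.096, SE 0.28), Mybbp1a (0.066, SE 0.23) and Pes1 (0.011, SE 0.15) differed by less than their SE on the log2 scale. Fbl, Npm1, Tcof1, Nol6, Rrs1 and Bop1 had no entry in the table of windows.

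**Figure D3:**
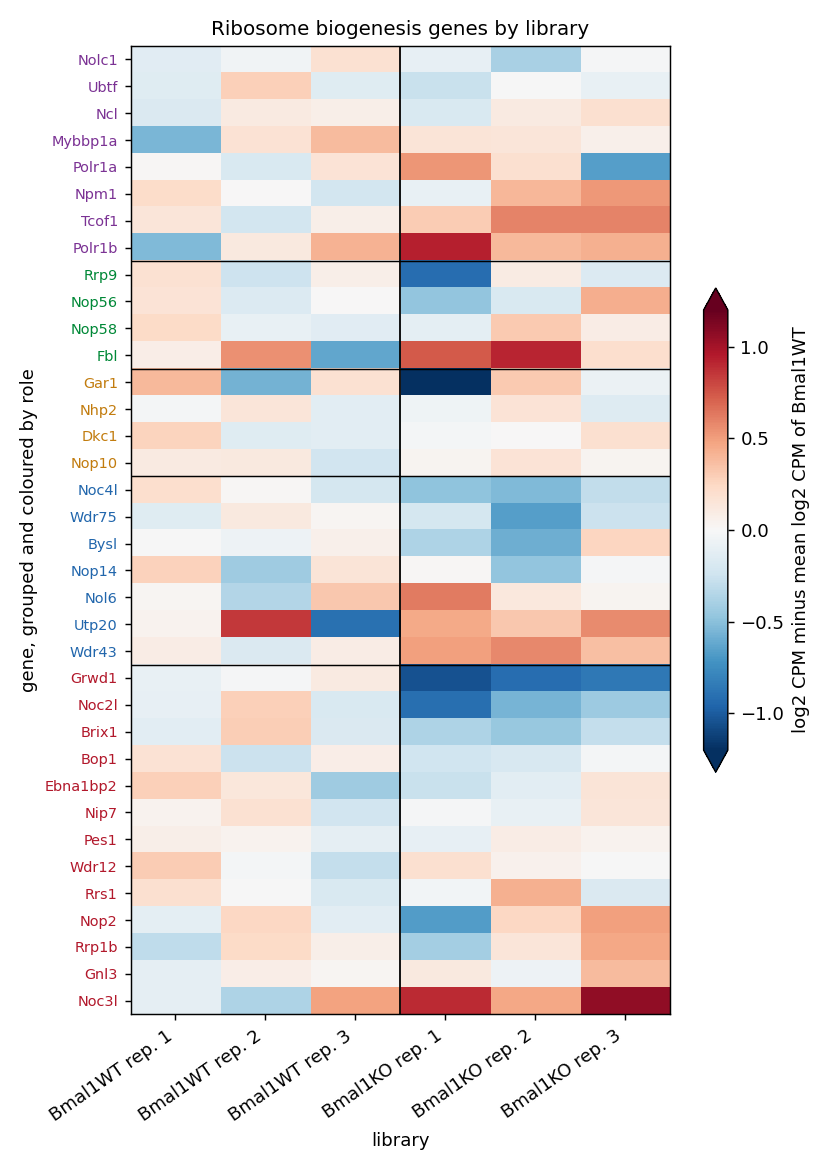
Log2 CPM of the 36 genes (rows, grouped by role) in each of the 6 libraries (columns), as the difference from the mean of the 3 Bmal1WT libraries (colour). Grwd1, Noc2l and Noc4l are low in all 3 Bmal1KO libraries, while rows such as Utp20 and Polr1a vary widely within a group; Gar1 in Bmal1KO replicate 1 lies below the colour scale.

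The first role group held 8 genes, those of ribosomal RNA transcription with its repressor Mybbp1a and the nucleolar proteins Npm1 and Ncl. Their median log2 fold change was 0.078, and 6 of them were higher. Their mean log2 level relative to the Bmal1WT mean was -0.14, 0.03 and 0.11 in the Bmal1WT libraries and 0.16, 0.18 and 0.13 in those of Bmal1KO. The Bmal1KO values were thus just above the highest Bmal1WT value, by an amount much smaller than the range within Bmal1WT. In summed CPM the groups overlapped, at 724 to 771 in Bmal1WT and 703 to 891 in Bmal1KO. Tcof1 encodes treacle, which holds polymerase I cofactors at the ribosomal genes. It had 21.3, 16.6 and 20.3 CPM in Bmal1WT and 23.9, 29.2 and 29.3 CPM in Bmal1KO, a log2 fold change of 0.50 (SE 0.22, adjusted p = 0.523 in edgeR's test) with no overlap between groups.

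Polr1b, the second largest subunit of RNA polymerase I, had counts of 42 to 88 per library, or 4.79, 7.50 and 9.25 CPM in Bmal1WT and 13.2, 9.06 and 9.31 CPM in Bmal1KO. The groups overlapped, and the log2 fold change of 0.55 (SE 0.36) did not pass edgeR's test (adjusted p = 0.652). Polr1a, the largest subunit, was at 23.9 ± 2.86 CPM (SD, n = 3) and 25.5 ± 9.74 CPM, with the highest and the lowest of its 6 values (34.3 and 15.0 CPM) both in Bmal1KO. Ubtf, which bends ribosomal gene DNA for the polymerase, was at 55.6 ± 9.99 and 50.8 ± 4.63 CPM, with a 95% interval from -0.54 to 0.28 on the log2 scale.

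Npm1 encodes nucleophosmin, an abundant chaperone of the nucleolus. It had 298, 257 and 220 CPM in Bmal1WT and 241, 338 and 369 CPM in Bmal1KO. Bmal1KO replicates 2 and 3 were above all Bmal1WT libraries and replicate 1 was among them, so that the log2 fold change of 0.29 (SE 0.20, adjusted p = 0.660 in edgeR's test) came with overlap. Ncl, which encodes nucleolin, an RNA-binding protein of the same compartment, had 241, 291 and 284 CPM and 238, 293 and 310 CPM in the same order, with no difference beyond the spread (0.043, SE 0.17). Nolc1, a partner of snoRNPs and of polymerase I, had a log2 fold change of -0.17 (SE 0.18). Mybbp1a, which represses ribosomal RNA synthesis, had one of 0.066 (SE 0.23), with 32.5 CPM in Bmal1WT replicate 1 against 49.5 to 61.8 CPM elsewhere.

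Box C/D snoRNPs, which methylate ribosomal RNA, were represented by their methyltransferase Fbl (fibrillarin), the scaffold proteins Nop56 and Nop58, and Rrp9, a protein bound to the U3 snoRNA. Their median log2 fold change was 0.036, 2 were higher and 2 lower, and none reached an unadjusted p under 0.05. Fbl had 4.56, 6.33 and 2.80 CPM in Bmal1WT and 7.22, 8.15 and 4.96 CPM in Bmal1KO, which overlapped (0.57, SE 0.44, edgeR adjusted p = 0.700). For a core enzyme these counts were low: 26 to 72 per library, where its partner Nop58 had 293 to 522. Transcripts of other genes, Gm5812 and Tulp4, matched 83.3% of the Fbl transcript at 95% identity or more, and how the authors treated reads with several matches is not given in the sources used here, so the level of Fbl is uncertain.

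Nop56 was at 50.5 ± 5.68 and 49.5 ± 16.6 CPM (SD, n = 3), and Nop58 at 48.0 ± 6.77 and 51.3 ± 7.54 CPM. The spread of Nop56 was wide in Bmal1KO, from 36.2 CPM in replicate 1 to 68.1 CPM in replicate 3. Rrp9 had 31.1, 23.2 and 28.8 CPM in Bmal1WT and 14.6, 29.6 and 24.6 CPM in Bmal1KO. Its log2 fold change was -0.27 (SE 0.28), and with both replicates numbered 1 left out it was 0.063.

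Box H/ACA snoRNPs, which convert uridines to pseudouridine, consist of the enzyme dyskerin (Dkc1) with Nhp2, Nop10 and Gar1. The first 3 of these were among the steadiest of all 36 genes. Nop10 had 167, 169 and 133 CPM in Bmal1WT and 159, 174 and 159 CPM in Bmal1KO, a difference of 0.071 log2 units (SE 0.16). Nhp2 had 123, 138 and 115 CPM and 120, 140 and 113 CPM (-0.013, SE 0.16), and Dkc1 was at 37.3 ± 6.23 and 38.6 ± 3.15 CPM (SD, n = 3). Their 95% intervals all stayed within 0.48 log2 units of 0. Gar1 had only 24, 12 and 22 counts in Bmal1WT and 2, 23 and 16 in Bmal1KO, and its interval, from -2.10 to 1.31, allows a large difference in either direction.

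Small subunit factors had a median log2 fold change of -0.18, with 3 of 7 higher and 4 lower, and included several of the clearer single differences in either direction. Their mean log2 level relative to Bmal1WT was 0.071, -0.17 and 0.092 in the Bmal1KO libraries and -0.061 to 0.068 in those of Bmal1WT. As a group they were thus not lower in every Bmal1KO library. Wdr43 (mm10 chromosome 17, 71615895 to 71659031), a WD-repeat protein that joins ribosomal RNA transcription to early processing, had 28.3, 23.6 and 28.2 CPM in Bmal1WT and 37.3, 39.5 and 34.2 CPM in Bmal1KO. The groups did not overlap (0.47, SE 0.19, edgeR adjusted p = 0.489). Wdr75, a protein of the same early complex, was lower, with 40.3, 48.3 and 45.3 CPM and 38.3, 28.2 and 37.2 CPM (-0.37, SE 0.19, edgeR adjusted p = 0.581).

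Noc4l (mm10 chromosome 5, 110648418 to 110653417), which works with Nop14 in exporting the early small subunit, had 47.9, 41.9 and 35.9 CPM in Bmal1WT and 29.8, 28.8 and 33.9 CPM in Bmal1KO, again without overlap (-0.44, SE 0.19, edgeR adjusted p = 0.515). Its partner Nop14 was at 39.4 ± 9.45 and 34.9 ± 6.24 CPM (SD, n = 3), with groups that overlapped. Nol6 had 41.0, 31.6 and 50.6 CPM in Bmal1WT and 62.0, 44.1 and 41.3 CPM in Bmal1KO (0.26, SE 0.23), so that 1 library, Bmal1KO replicate 1, stood above the rest. Utp20, a very large scaffold protein, ranged from 5.81 to 19.5 CPM within Bmal1WT alone. Bysl, which acts late on the small subunit, was at 32.2 ± 1.43 and 28.4 ± 9.03 CPM, and 361 bases of its exons overlap Ccnd3 on the other strand, so that its counts are uncertain.

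Large subunit factors had a median log2 fold change of 0.011, with 8 of 13 higher and 5 lower. The PeBoW complex is made of Pes1, Bop1 and Wdr12 and needed to cut the precursor of the large subunit RNAs. The RNA of each of these 3 genes differed by less than its SE. Pes1 was at 87.7 ± 5.70 and 88.3 ± 5.99 CPM (SD, n = 3), and had the smallest spread of the 36 genes over the 6 libraries, with a highest value 1.15 times the lowest. Bop1 was at 82.3 ± 12.3 and 73.7 ± 5.72 CPM, and Wdr12 at 37.3 ± 7.70 and 39.0 ± 2.80 CPM. Pseudogenes and other transcripts match 60.3% of the Pes1 transcript, 48.2% of the Wdr12 transcript, 53.8% of the Npm1 transcript and 39.2% of the Nop56 transcript, so reads of these genes may be shared.

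The genes of the NOC proteins, which carry early particles through the nucleolus, differed in direction. Noc2l (mm10 chromosome 4, 156236010 to 156247616) had 18.4, 24.0 and 17.3 CPM in Bmal1WT and 10.5, 13.4 and 14.5 CPM in Bmal1KO. All 3 Bmal1KO values were lower (-0.63, SE 0.26, edgeR adjusted p = 0.495). Its partner Noc3l had 4.79, 3.98 and 7.21 CPM in Bmal1WT and 9.62, 7.13 and 10.8 CPM in Bmal1KO, with a slight overlap (0.78, SE 0.38, edgeR adjusted p = 0.551). The exons of Noc2l share 598 bases (20.9%) with Samd11 on the other strand, which had 0 counts in 5 libraries and 5 in Bmal1KO replicate 3.

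Brix1, a factor of early large subunit assembly, had 33.1, 44.4 and 32.0 CPM in Bmal1WT and 27.8, 26.3 and 29.5 CPM in Bmal1KO, with no overlap (-0.39, SE 0.21, edgeR adjusted p = 0.582). Gnl3, the GTPase nucleostemin, was at 47.6 ± 3.03 and 53.0 ± 8.14 CPM (SD, n = 3). Nop2, a methyltransferase of the large subunit RNA, spread widely in Bmal1KO, from 23.6 CPM in replicate 1 to 52.6 CPM in replicate 3. Ebna1bp2, Nip7, Rrs1 and Rrp1b, further factors of large subunit maturation, had log2 fold changes from -0.10 to 0.096, each smaller than its SE.

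**Figure D4:**
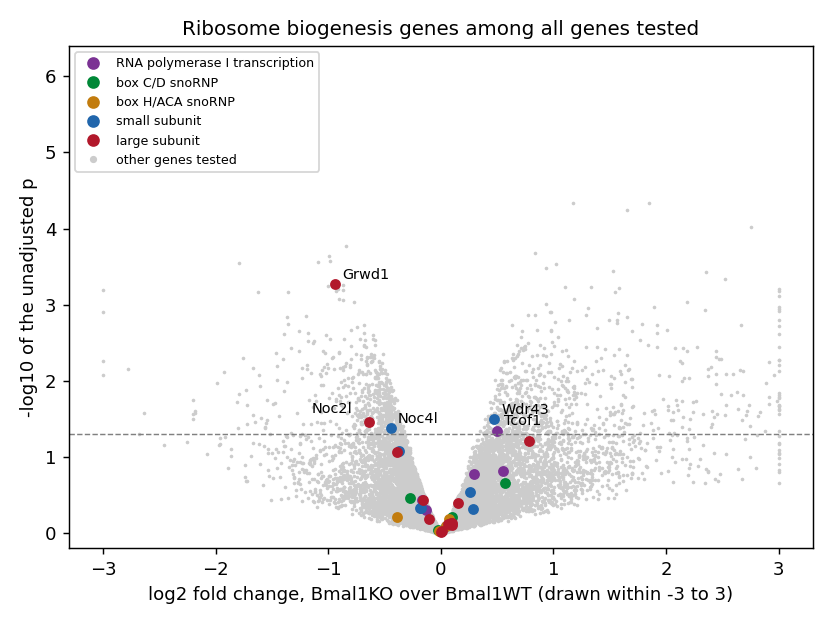
Log2 fold change of Bmal1KO over Bmal1WT (x axis, values past either end drawn at the edge) against -log10 of the unadjusted p (y axis) for all 13859 genes tested (grey) and the 36 genes coloured by role; the dashed line marks an unadjusted p of 0.05. Grwd1 lies high among all genes, 4 others of the 36 lie above the line, and the rest lie below it.

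Levels were compared between genes per kilobase of transcript, over all 6 libraries. On this scale Npm1 led at 176 ± 35.6 CPM per kb (SD, n = 6), followed by Nop10 at 144 ± 13.2 and Nhp2 at 120 ± 11.2. The ranges of neighbouring genes in this order overlapped, 135 to 226 for Npm1, 120 to 157 for Nop10 and 108 to 134 for Nhp2. A wide gap separated these from the next, Ncl at 33.7 ± 3.62 CPM per kb, whose value rests on an annotated transcript of 8.202 kb. Bop1 (31.3), Pes1 (30.2), Nop58 (29.0), Nop56 (26.7) and Gnl3 (25.8 CPM per kb) lay close behind and overlapped in range. At the low end stood Noc3l (1.82), Utp20 (1.52) and Gar1 (1.5 CPM per kb). The RNAs for the core proteins of one H/ACA particle were thus far apart on this scale. Nhp2 and Nop10 were above 100 CPM per kb in every library, Dkc1 was at 13.5 and Gar1 between 0.237 and 2.15. The amounts of the proteins were not measured.

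Other genes of the pathway, 136 on a list that left out the 36, leaned slightly to the lower side. Of 133 that passed the filter, 59 were higher (44.4%, beside 52.0% of all genes tested) and 74 lower in Bmal1KO. Their median log2 fold change was -0.058, and 0 passed edgeR's test. With libraries scaled by total count alone 75 were higher and the median was 0.038. The median of all genes tested was 0.112 with that scaling and 0.018 in the main fit. The sign of the list's median thus depends on the scaling, but it lay below the median of all genes under both. An unadjusted p under 0.05 was reached by 3 higher and 8 lower genes, beside 5.05% and 4.26% of all genes tested. The groups did not overlap for 17 lower and 7 higher of the 133 genes, beside 7.85% and 7.83% of all genes tested. Together that was 18.0% of the list, beside 15.7% of all genes.

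The 6 of smallest p were Rcl1, Ftsj3, Ltv1, Lsg1, Mtrex and Ppan. Rcl1, which takes part in cutting the small subunit precursor, was at 60.8 ± 5.41 and 38.6 ± 6.94 CPM (SD, n = 3), with a log2 fold change of -0.66 (SE 0.19, edgeR adjusted p = 0.414). Ftsj3, a methyltransferase that acts on precursor RNA, had 77.0, 76.9 and 77.3 CPM in Bmal1WT and 62.3, 51.2 and 44.2 CPM in Bmal1KO (-0.55, SE 0.17, edgeR adjusted p = 0.418). Ltv1, a small subunit export factor, was at 83.9 ± 3.10 and 58.4 ± 9.22 CPM, Lsg1, a GTPase of the last large subunit steps, at 46.3 ± 4.29 and 32.5 ± 2.54 CPM, and Ppan, a large subunit factor, at 38.3 ± 2.73 and 27.6 ± 2.21 CPM. In these 5 genes every Bmal1KO value was below every Bmal1WT value. Mtrex, the helicase of the nuclear exosome, was higher, at 35.4 ± 6.70 and 52.8 ± 12.7 CPM, with groups that overlapped. Myc, the regulator of the pathway, was at 29.1 ± 2.32 and 27.3 ± 10.9 CPM (-0.090, SE 0.30), with 14.9 CPM in Bmal1KO replicate 1 and 31.3 and 35.6 CPM in replicates 2 and 3.

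Cytosolic ribosomal protein genes, whose products these factors assemble, had a different median. Of 73 tested, 72 were higher in Bmal1KO, with a median log2 fold change of 0.39 beside 0.046 for the 36 assembly genes and 0.018 for all genes, and 0 passed edgeR's test. Relative to Bmal1WT their mean log2 level was 0.03, 0.60 and 0.45 in Bmal1KO replicates 1 to 3, and -0.20 to 0.17 in Bmal1WT. The 36 assembly genes stood at -0.11, 0.03 and 0.09 in the same Bmal1KO libraries and at -0.04 to 0.02 in Bmal1WT. Bmal1KO replicate 1 was the lowest and replicates 2 and 3 were higher in both lists, with a far smaller step in the assembly genes. The difference between the lists was not tested.

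**Figure D5:**
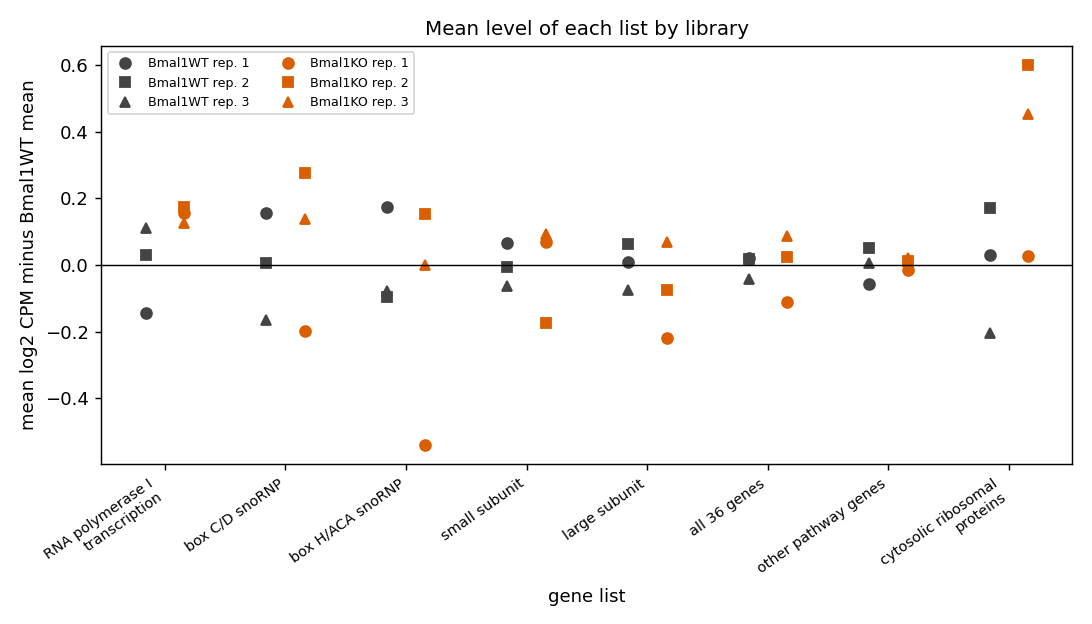
Mean log2 CPM of each gene list in each library (points), as the difference from the mean of the 3 Bmal1WT libraries (y axis), for the 5 roles, all 36 genes, 133 other pathway genes and 73 cytosolic ribosomal protein genes (x axis). The ribosomal protein list reaches 0.60 and 0.45 in Bmal1KO replicates 2 and 3, while the 36 genes stay between -0.11 and 0.09.

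Levels of cell type markers also differed between the groups, though no marker passed edgeR's test, and in whole tissue fewer cells of a type and less RNA per cell cannot be told apart. All 10 T cell markers were higher in Bmal1KO, and their summed level was 29.1 to 71.1 CPM in Bmal1WT and 97.4 to 197 CPM in Bmal1KO. All 8 adipocyte markers were lower, at a summed 22770 to 26620 CPM in Bmal1WT and 13690 to 28110 CPM in Bmal1KO, and all 7 endothelial markers were lower, at 310.2 to 658 and 210.4 to 356 CPM. Of 8 macrophage markers 7 were higher, at 4128 to 5959 and 3547 to 7468 CPM. All 6 mesothelial markers were higher, and their summed levels did not overlap, at 198 to 366 and 413 to 475 CPM. All 7 B cell markers tested were higher, and the 8 named summed to 12.1 to 51.2 and 31.8 to 311 CPM. All 4 plasma cell markers tested were higher, and the 5 named summed to 1422 to 1788 and 719 to 4785 CPM. Most of that plasma cell sum was Ighm, at means of 1540 CPM in Bmal1WT and 2430 CPM in Bmal1KO. The highest sum of both lists was in Bmal1KO replicate 3. Markers of dividing cells, 7 of 8 higher, summed to 228 to 296 CPM in Bmal1WT and to 183, 368 and 382 CPM in Bmal1KO replicates 1 to 3, the same order of libraries as in the summed 36 genes (1805, 2021 and 2116 CPM). No marker of these 8 lists was at 0 in all libraries. Their part in the levels of the nucleolar genes was not tested.

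Several of the 36 genes also carry small nucleolar RNAs inside their own gene bodies, the guides of the particles that the others build. GENCODE M21 places snoRNA genes on the same strand within 6 of the 36 genes (16.7%), namely Nop56 with 5, Nop58 with 4, Ncl, Wdr43 and Gnl3 with 3 each and Dkc1 with 1, beside 1.82% of 12509 protein-coding genes tested. These host genes did not share a direction: Wdr43 was higher by 0.47 log2 units, while Gnl3 (0.15), Nop58 (0.098), Dkc1 (0.049), Ncl (0.043) and Nop56 (-0.027) differed by less than their SE. The snoRNAs themselves are short and lack a poly(A) tail, and libraries primed with oligo(dT) do not measure them.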

How the data were processed

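Per the labels' protocols, RNA from whole visceral fat was primed with anchored oligo(dT), amplified and cut by transposase, and sequenced in pairs. Such libraries carry no strand mark and no molecular identifiers. The authors deposited 1 table of raw counts by gene symbol. The submitters' processing notes name STAR 2.7.3a, featureCounts and mm10. Which annotation and strand setting were used, and how multiply matching reads were handled, is not given in the sources used here.

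Genes were kept by filterByExpr (13859 of 55011), libraries were scaled by TMM, and Bmal1KO was compared with Bmal1WT by the quasi-likelihood F-test of edgeR 4.0.16 in R 4.3.3, without covariates, with Benjamini-Hochberg adjustment over all genes tested and a threshold of 0.05. CPM use TMM-scaled library sizes. The SE was taken as the size of the unshrunken log2 coefficient over the root of its F statistic, and 95% intervals use the moderated degrees of freedom. List means are of log2 CPM with a prior count of 2. Alternatives were DESeq2 1.42.0 size factors, library size alone, no filter, at least 1 CPM in 3 libraries, DESeq2's own test, voom of limma 3.58.1 with quality weights, a replicate block, omission of each library in turn, and omission of both replicates numbered 1.

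The 36 genes, the pathway list and the marker lists were chosen with earlier results of these data known. The text gives every library's value for the 12 genes of smallest p and the 4 of highest count per length, names all others of the 36, and names the 6 other pathway genes of smallest p and Myc, and Arntl and Foxp3 to check the labels; further library values were picked after they were seen. Overlapping genes, transcript lengths (the shortest APPRIS principal transcript) and similar transcripts (megablast, at least 95% identity over 100 bases) came from GENCODE M21, which is on mm10, and promoter windows from RefSeq on GRCm38.p6, the same assembly. Protein sequences were not used here. Intervals and the floor of 3 counts do not include errors of amplification.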

Additional observations from a re-analysis of the deposited data

How the results depend on the processing

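The 0 calls among 133 other pathway genes held under all 14 alternatives, and the 0 calls among the 36 genes under 12; without a filter on low counts and with DESeq2 1 was called, Grwd1. Over all genes, 186 were called without a filter, 60 by DESeq2 and 61 with both replicates numbered 1 left out. With 1 library left out, 0 to 156 genes were called, 156 of them without Bmal1KO replicate 1, 6 without Bmal1KO replicate 2 and 1 without Bmal1WT replicate 1. Members at an unadjusted p under 0.05 numbered 3 without a filter (7.25% of all genes in that fit), 2 by DESeq2 (4.74% of the 34476 genes with a p), 3 with both replicates numbered 1 left out (14.9%) and 1 to 5 with 1 library left out (6.97% to 16.2%). The median log2 fold change of the 36 genes was 0.14 with library size alone, where that of all genes was 0.11, and -0.034 to 0.058 with 1 library left out; for other pathway genes it was 0.038 and -0.066 to -0.011. Direction was kept under every alternative by 17 of the 36 genes and turned under at least 1 for 19. Log2 fold changes that turned were, with library size alone, 0.071 for Nop56 and 0.080 for Nhp2; without a filter, -0.0090 for Pes1 and -0.014 for Nip7; by DESeq2, -0.0019 for Pes1 and -0.0067 for Nip7; and by voom, -0.030 for Polr1a and -0.0030 for Nip7. With both replicates numbered 1 left out they were 0.25 for Nop56, 0.0024 for Nhp2, 0.29 for Gar1, 0.063 for Rrp9, -0.17 for Polr1a, 0.14 for Ebna1bp2 and -0.17 for Mybbp1a. With 1 library left out the ranges were -0.041 to 0.15 for Ncl, -0.33 to 0.15 for Nop56, -0.12 to 0.29 for Rrp1b, -0.28 to 0.055 for Ebna1bp2, -0.15 to 0.27 for Mybbp1a, -0.12 to 0.063 for Nhp2, -0.027 to 0.20 for Dkc1, -0.20 to 0.029 for Ubtf, -0.030 to 0.13 for Nop10, -0.066 to 0.23 for Wdr12, -0.037 to 0.062 for Pes1, -0.045 to 0.81 for Utp20, -0.094 to 0.10 for Nip7, -0.90 to 0.079 for Gar1, -0.18 to 0.35 for Polr1a, -0.023 to 0.23 for Nop58, -0.12 to 0.20 for Rrs1 and -0.15 to 0.36 for Nop2. The cause was not tested. Counts of 2 to 24 for Gar1 limit its precision.

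The labels do not say whether equal replicate numbers pair the samples. Deviations from the group means correlated at -0.0695, 0.0942 and -0.0305 for numbers 1 to 3. Not every sample correlated best with its own number, but with 3 samples per group these values cannot decide whether the samples were paired. With the replicate number as a block, 0 genes were called, 2 of the 36 were at an unadjusted p under 0.05 (8.09% of all genes), and the edgeR adjusted p of Grwd1 was 0.558.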
